A study of Saccharomyces cerevisiae with 6 samples.

Results

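Aminoacyl-tRNA synthetases are the enzymes that load each amino acid onto its tRNA. The 34 yeast genes for them that are described here are 21 for the cytosolic enzymes and 13 for the mitochondrial enzymes, of 6256 genes on the array. They were taken by name, each matched to 1 probe by its locus tag, and the rule itself uses no measured value. Expression was measured in Saccharomyces cerevisiae on 6 one-colour (Cy3) Agilent arrays of total RNA, 3 for a fermentation on xylose sampled at 9 h and 3 for one on glucose sampled at 3 h, either sugar supplied at 50 g/L. The study's title asks which promoters are of use during growth on xylose. Sugar and sampling time changed together, so their parts in any difference cannot be told apart. The glucose time is taken as 3 h, as in the titles, although a further label of those samples reads 9 h. The strain and any alleles it carries are not given in the sources used here, nor is it stated whether the 3 replicates of a sugar were separate cultures, so the spread that p-values rest on is that between these arrays and could be technical.

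Protein synthesis needs a synthetase activity for each amino acid in the cytosol and, separately, in the mitochondrion, where a small set of mainly respiratory proteins is made on mitochondrial ribosomes. In budding yeast all of these enzymes are encoded in the nucleus. For most amino acids 1 gene serves the cytosol and another the mitochondrion, while ALA1, GRS1, HTS1, VAS1 and YNL247W (named CRS1 in the reference table) give rise to both forms. Uncharged tRNA, which accumulates when an amino acid or its synthetase is short, is sensed by the kinase Gcn2, and through it the translation of the activator Gcn4 rises.

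A level is the log2 processed signal of a gene less the 75th percentile of its array, and a difference is the mean level in xylose less that in glucose. That percentile was 1407 to 3871 signal units, and 92.3% to 95.6% of probes were well above background on an array. All 34 synthetase genes were well above background on all 6 arrays, so all of them were tested, and the number of arrays limits the precision. Differences were fitted with limma across 5907 genes and called at a Benjamini-Hochberg adjusted p under 0.05. Replicates 1 and 2 of each sugar shared slide 1, and the arrays of replicate 3 were on slide 2. Xylose replicates 1 and 2 were close to each other, with a median absolute gap of 0.068 over the synthetase genes against 0.52 and 0.57 for the other xylose pairs. Glucose replicate 2 stood apart in several of the genes listed as strain markers. URA3, of uracil synthesis, was at 6.35 there and between 0.985 and 1.82 elsewhere. LEU2 and MET17, of leucine and methionine synthesis, were at 0.34 and 4.57 there and not well above background elsewhere, between -9.07 and -7.88, and the asparaginase gene ASP3-1 was at -8.55 against 2.87 to 3.99. Of the other markers LYS2, at -0.52, lay within the range of the other arrays, and HIS3 was not well above background on any array. The results that turn on glucose replicate 2, an array singled out after its values were seen, are given with and without it.

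Differences of the cytosolic synthetase genes were nearly all negative, that is, lower in xylose at 9 h than in glucose at 3 h, and those of the mitochondrial genes lay on both sides of 0. With all arrays the difference was negative for 20 of the 21 cytosolic genes, against 48.4% of all genes tested, and its median was -0.52, against 0.021 over all genes. No single gene passed the limma test with all arrays. Of the 21 genes 7 had an unadjusted p under 0.05, against 16.5% of all genes, and 2.52% of all genes were called in that fit, 1.42% as higher and 1.10% as lower. Without glucose replicate 2 all 21 differences were negative, against 47.0% of all genes, with a median of -0.96. That array held the lowest glucose value for all 21 genes, so leaving it out could only lower each difference. Without that array the limma test called 7 of the 21 genes, all lower, against 5.65% of all genes called lower and 11.5% called in either direction. With the close xylose replicates 1 and 2 also averaged as 1 sample, it called 1, TYS1, against 0.711% of all genes called lower. None rose. In bulk RNA, fewer cells with a transcript and less transcript per cell cannot be told apart.

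TYS1, the tyrosyl-tRNA synthetase gene, had the largest difference of the list. Its level was -0.57, -0.52 and -0.96 in xylose replicates 1 to 3 and 1.55, 0.40 and 1.28 in glucose replicates 1 to 3. The lowest glucose array, replicate 2, still lay above every xylose array. The difference was -1.76 ± 0.35 (SE, n = 3 against 3), a level 3.39-fold higher in glucose, with a limma adjusted p = 0.0512, just outside the threshold. Without glucose replicate 2 TYS1 fell by 2.10 on the log2 scale (adjusted p = 0.00830).

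KRS1, for the lysyl-tRNA synthetase, was at 1.35, 1.26 and 1.26 in xylose and at 2.81, 2.09 and 2.85 in glucose. The xylose values lay within 0.1 of each other and the groups did not overlap. Its difference was -1.29 ± 0.28 (adjusted p = 0.0640), and -1.54 ± 0.17 without glucose replicate 2 (adjusted p = 0.00849). The tryptophanyl-tRNA synthetase gene WRS1 was at -1.73, -1.81 and -2.13 in xylose and at -0.31, -0.92 and -0.73 in glucose. These groups did not overlap either, and glucose replicate 2 lay close to glucose replicate 3. WRS1 differed by -1.24 ± 0.26 (adjusted p = 0.0623), and by -1.37 ± 0.23 without glucose replicate 2 (adjusted p = 0.0239). With the replicate number as a block WRS1 was the only synthetase gene called (adjusted p = 0.0480), against 2.49% of all genes called as lower and 2.76% as higher there.

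DED81, for the asparaginyl-tRNA synthetase, stood at 1.0997, 1.12 and 1.01 in xylose and at 2.38, 1.31 and 2.23 in glucose. Glucose replicate 2 lay nearer to the xylose arrays than to the other glucose arrays. The difference was -0.90 ± 0.33 with all arrays (adjusted p = 0.227) and -1.23 ± 0.17 without that array (adjusted p = 0.0151). YDR341C, the cytosolic arginyl-tRNA synthetase, showed the same order of arrays, with -0.41, -0.39 and -0.63 in xylose and 0.68, -0.27 and 0.29 in glucose. Its difference of -0.71 ± 0.30 (adjusted p = 0.296) became -0.96 ± 0.21 without glucose replicate 2 (adjusted p = 0.0435). For both genes the groups did not overlap with or without that array.

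In CDC60 and VAS1 the groups overlapped through glucose replicate 2 alone. CDC60, the leucyl-tRNA synthetase, was at -1.39, -1.60 and -1.001 in xylose and at -0.14, -2.20 and 0.31 in glucose, so glucose replicate 2 held the lowest value of all. The difference was -0.65 ± 0.63 with all arrays (adjusted p = 0.671) and -1.41 ± 0.26 without it (adjusted p = 0.0314), a move of over 1.5 times. VAS1, the valyl-tRNA synthetase of both compartments, was at -0.043, -0.079 and -0.24 in xylose and at 0.84, -0.28 and 0.61 in glucose. It differed by -0.51 ± 0.33 (adjusted p = 0.513), and by -0.85 ± 0.19 without glucose replicate 2 (adjusted p = 0.0447).

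The genes of the proline and phenylalanine enzymes did not pass in either fit. YHR020W, for the cytosolic prolyl-tRNA synthetase, was at -0.24, -0.35 and -0.90 in xylose and at 0.93, 0.17 and 0.30 in glucose, with no overlap. Its difference was -0.96 ± 0.31 (adjusted p = 0.178), and -1.11 without glucose replicate 2 (adjusted p = 0.0793). FRS1, for a subunit of the cytosolic phenylalanyl-tRNA synthetase, differed by -0.91 ± 0.28 and its groups did not overlap, whereas FRS2, for the other subunit, differed by -0.48 ± 0.36 with overlap. The differences were -1.07 and -0.80 without glucose replicate 2, and neither gene's groups overlapped.

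**Figure D1:**
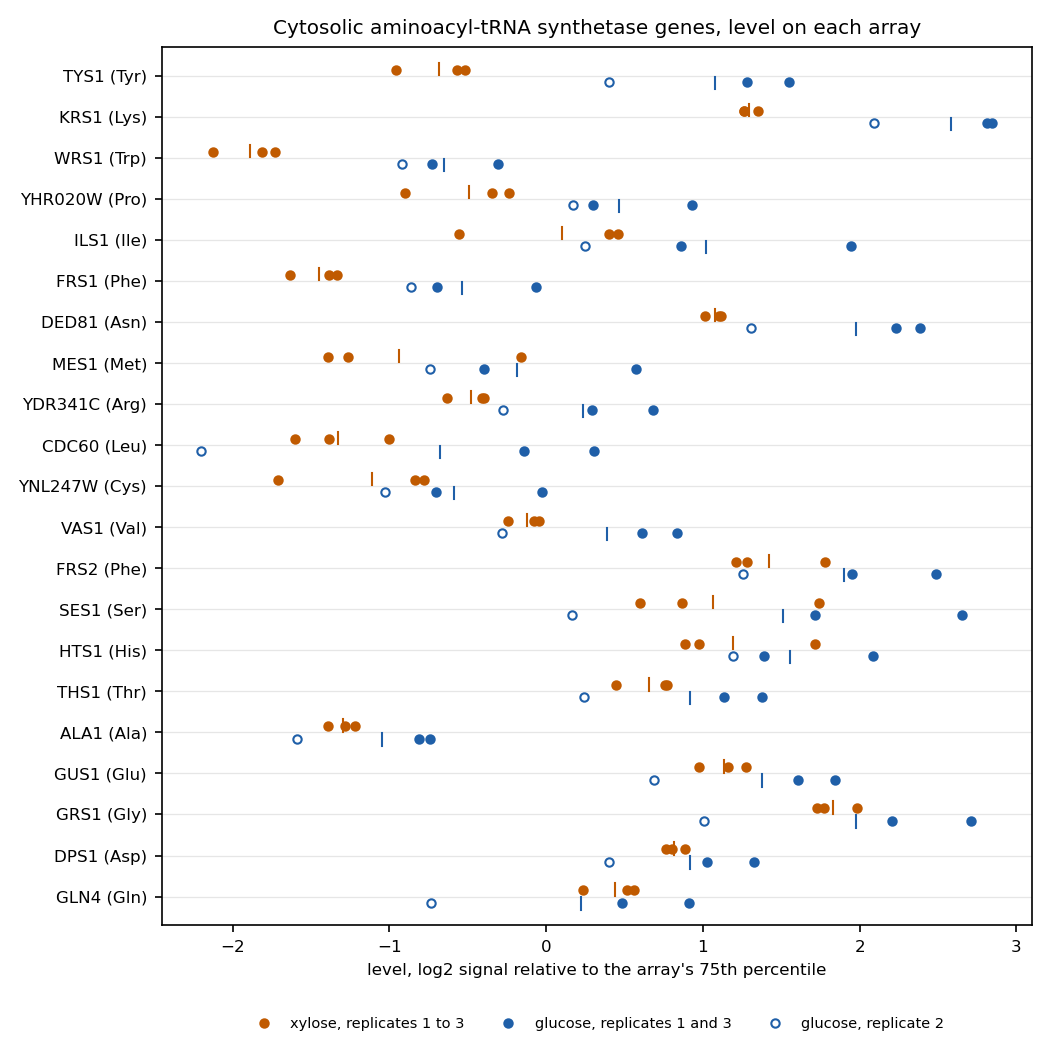
Each row is a cytosolic synthetase gene with its amino acid; points are the level on each array (log2 signal relative to the array's 75th percentile), vertical ticks the mean of 3 arrays per sugar. Rows are ordered by difference, and levels of different genes are not comparable. Open points, glucose replicate 2, are the lowest glucose value in all 21 rows.

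Among the other cytosolic genes the difference reached from -0.92 for ILS1 (isoleucine) to 0.22 for GLN4 (glutamine), the 1 gene of the list with a positive difference, which was -0.26 without glucose replicate 2. MES1 (methionine), SES1 (serine), HTS1 (histidine), THS1 (threonine), ALA1 (alanine), GUS1 (glutamate), GRS1 (glycine) and YNL247W (cysteine) lay between them. With all arrays the smallest difference in size was that of DPS1, the aspartyl-tRNA synthetase. It stood at 0.80, 0.77 and 0.88 in xylose and at 1.33, 0.40 and 1.03 in glucose, a difference of -0.099 ± 0.29. Glucose replicate 2 lay below the xylose arrays and both other glucose arrays above them. Without it DPS1 differed by -0.36, and GLN4 had the smallest difference. Of the 21 genes DPS1 and ALA1 had a 95% interval inside a 2-fold change in both directions, against 34.4% of all genes, and the intervals of the others reached past 2-fold.

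Groups of the cytosolic genes differed in their medians, which were not tested. The 5 genes listed above as giving rise to both forms had a median difference of -0.36, and the 16 others -0.73. Without glucose replicate 2 the medians were -0.63 and -1.09. Synthetases fall into a pair of structural classes with unrelated catalytic folds. Class I enzymes, 10 of the cytosolic genes, had a median of -0.68 and the 11 class II genes one of -0.44, or -0.996 and -0.80 without that array.

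The size of the cytosolic difference turned on glucose replicate 2. That array held the lowest of the 3 glucose values for 21 of 21 cytosolic genes, against 37.2% of all genes, and for 8 of 13 mitochondrial genes. For 9 of the 21 it lay below every xylose array, for 5 within their range and for 7 above them. Its median gap to glucose replicate 1 over the cytosolic genes was -0.95 and to glucose replicate 3 -0.89, where over all genes the gaps were -0.044 and 0.11. The groups did not overlap for 7 of 21 genes with all arrays (TYS1, KRS1, WRS1, YHR020W, FRS1, DED81 and YDR341C), all lower in xylose, against 10.9% of all genes in that direction and 12.6% in the other. Without glucose replicate 2 they did not overlap for 17, again all lower, against 20.2% of all genes and 21.8% in the other direction. The part that the strain marker genes' shift in this array has in these values was not tested.

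**Figure D2:**
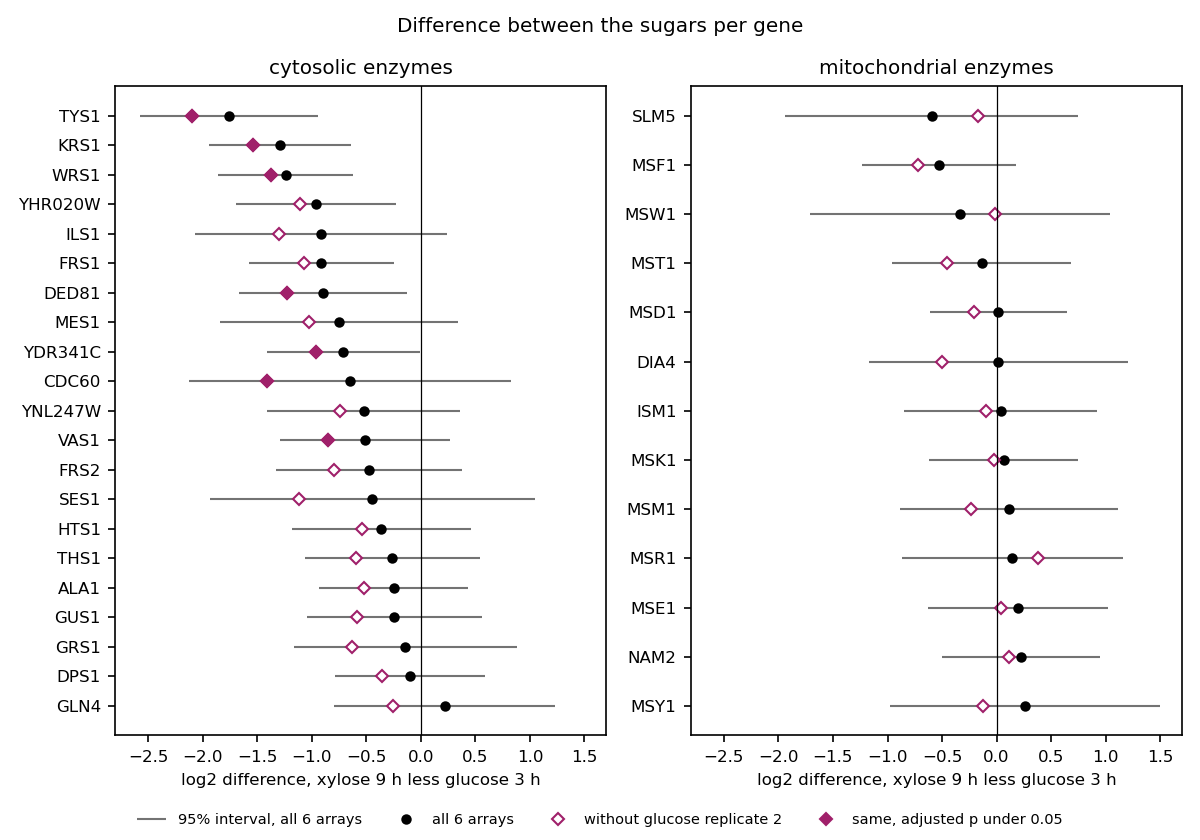
Log2 difference of xylose at 9 h less glucose at 3 h for each gene, cytosolic left and mitochondrial right; dots with 95% intervals are all 6 arrays, diamonds the value without glucose replicate 2, filled where its limma adjusted p was under 0.05. The 7 filled diamonds are all cytosolic and all below 0.

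None of the 13 mitochondrial synthetase genes was called, with or without glucose replicate 2, where 2.52% of all genes were called with it and 11.5% without it. With all arrays 4 differences were negative and 9 positive, against 51.6% of all genes positive, from -0.59 for SLM5 to 0.26 for MSY1, with a median of 0.040 against 0.021 over all genes. None had an unadjusted p under 0.05, against 16.5% of all genes. Without glucose replicate 2, 10 were negative and 3 positive, against 53.0% of all genes positive, the median was -0.12, and 1 had an unadjusted p under 0.05, against 27.7% of all genes. For MST1 (threonine), MSD1 (aspartate), ISM1 (isoleucine), MSK1 (lysine) and NAM2 (leucine) the 95% interval stayed inside a 2-fold change in both directions.

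SLM5, the mitochondrial asparaginyl-tRNA synthetase, was at -2.51, -2.46 and -3.78 in xylose and at -2.12, -1.47 and -3.38 in glucose. The lowest values of both groups were those of replicate 3, and the groups overlapped. Its difference was -0.59 ± 0.57 (adjusted p = 0.670), and -0.17 without glucose replicate 2, which held the highest value. MSW1, for the tryptophan enzyme, was at -1.76, -1.89 and -3.47 in xylose and at -1.72, -1.40 and -2.99 in glucose. Here too replicate 3 was the lowest in both sugars, and the difference was -0.33 ± 0.58, or -0.016 without glucose replicate 2, which held the highest value.

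MSF1, for the mitochondrial phenylalanyl-tRNA synthetase, stood at -1.24, -1.42 and -0.80 in xylose and at -0.63, -1.01 and -0.24 in glucose. Each xylose array lay below the glucose array of the same number, and the difference was -0.52 ± 0.30 (adjusted p = 0.451), or -0.72 without glucose replicate 2 (adjusted p = 0.149). MSY1, the tyrosine enzyme, was at -1.77, -1.91 and -0.76 in xylose and at -1.996, -2.51 and -0.71 in glucose, a difference of 0.26 ± 0.53 that turned to -0.12 without glucose replicate 2. MSD1, the aspartate enzyme, had the smallest difference, 0.015 ± 0.27, with -1.101, -1.20 and -1.05 in xylose and -0.97, -1.57 and -0.86 in glucose. As in its cytosolic counterpart DPS1, glucose replicate 2 was the lowest array and the other glucose arrays lay above all xylose arrays. Without it MSD1 differed by -0.20.

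The other mitochondrial genes, DIA4 (serine), ISM1, MSE1 (glutamate), MSK1, MSM1 (methionine), MSR1 (arginine), MST1 and NAM2, differed by -0.14 to 0.22. NAM2, which besides charging leucine tRNA is needed for splicing of mitochondrial introns, differed by 0.22 ± 0.31, and by 0.11 without glucose replicate 2. Its groups overlapped, as did those of all 13 mitochondrial genes. Without glucose replicate 2 the groups stood apart for 2 of the 13, MSF1 and MSD1, both lower in xylose, where 20.2% of all genes stood apart in that direction. Compared by replicate number, SLM5, MSF1 and MSW1 were lower in xylose in all 3 pairs and MSK1, MSR1 and NAM2 higher in all 3, against 24.5% and 29.7% of all genes. Of the cytosolic genes 10 were lower in all 3 pairs and none higher.

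**Figure D3:**
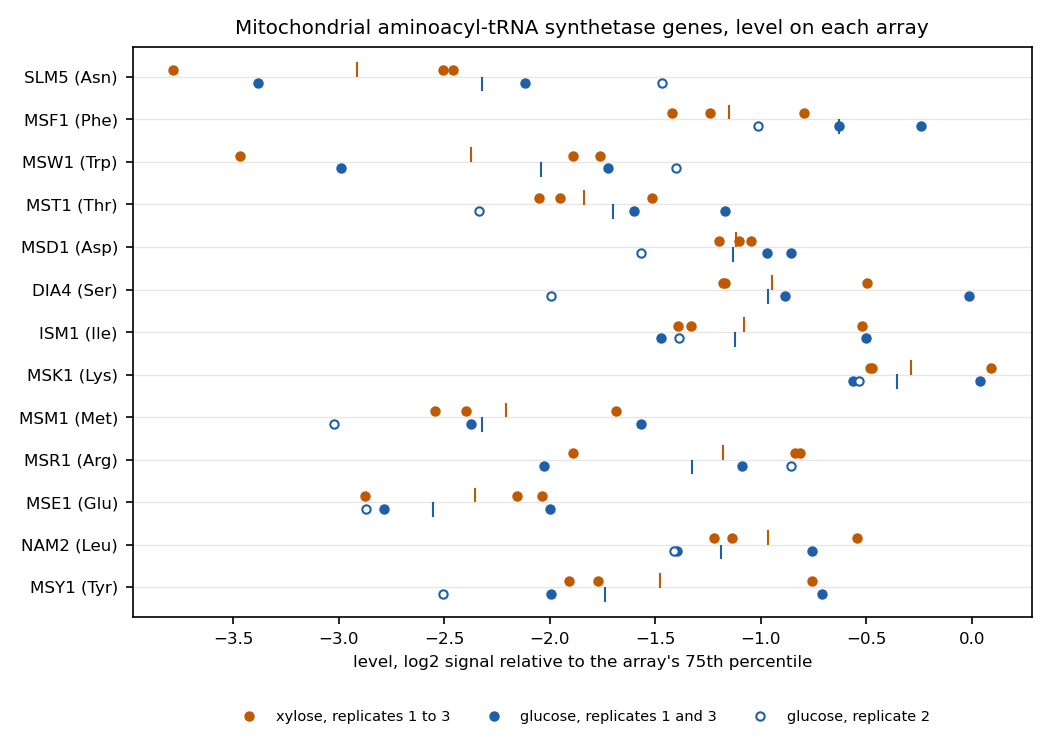
Each row is a mitochondrial synthetase gene; points are the level on each array (log2 signal relative to the array's 75th percentile), ticks the mean of 3 arrays per sugar. Xylose and glucose points overlap in all 13 rows, and in SLM5 and MSW1 the lowest point of each sugar is replicate 3.

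For most synthetase genes, as for most genes on the array, slide 2 differed from slide 1 in the same direction in both sugars. Slide 2 held only replicate 3 of each sugar, so a step by slide and one by replicate cannot be told apart. The step from slide 1 to slide 2, taken as xylose replicate 3 less the mean of xylose replicates 1 and 2 and as glucose replicate 3 less replicate 1, had the same sign in both sugars for 13 of 13 mitochondrial and 17 of 21 cytosolic genes, against 90.4% of all genes. For MSW1 the steps were -1.64 in xylose and -1.27 in glucose, for MSR1 -1.07 and -0.94, and for MSY1 1.08 and 1.29. Among cytosolic genes MES1 had steps of 1.17 and 0.97 and ILS1 of -0.98 and -1.08. The median size of the step in xylose and in glucose was 0.78 and 0.81 over the mitochondrial genes. Over the cytosolic genes it was 0.32 and 0.43, and over all genes 0.47 and 0.48. The differences of the mitochondrial genes between the sugars were at most 0.59 in size.

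**Figure D4:**
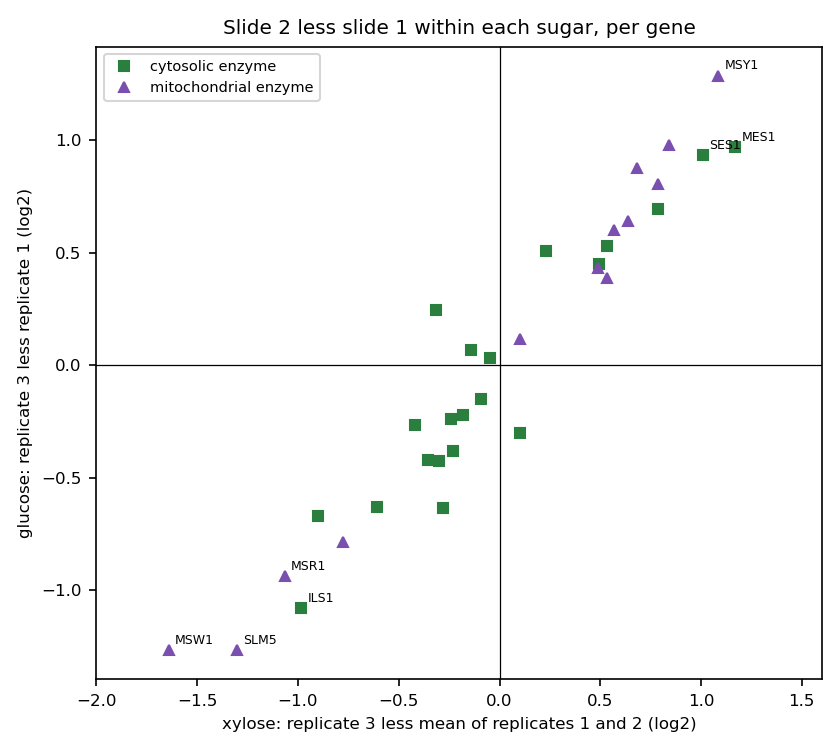
Each point is a synthetase gene; the x axis is xylose replicate 3 (slide 2) less the mean of replicates 1 and 2 (slide 1), the y axis glucose replicate 3 (slide 2) less replicate 1 (slide 1), both in log2. Most points lie on the upper right or lower left, with the same sign on both axes: 13 of 13 mitochondrial and 17 of 21 cytosolic genes.

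Values within slides kept the contrast of the compartments. The median difference of the cytosolic genes was -0.36 within slide 1, which held glucose replicate 2, and -0.93 within slide 2, where each sugar had 1 array and no test is possible. For the mitochondrial genes the medians were 0.12 and -0.12. With the slide as a block KRS1, MES1, TYS1 and WRS1 were called lower, 4 of 21 cytosolic genes against 5.26% of all genes called lower and 6.42% higher. No mitochondrial gene was called there, and 2 had an unadjusted p under 0.05, against 1832 of all 5907 genes. The SE of the mitochondrial genes was smaller in that fit, 0.21 for SLM5 (adjusted p = 0.139) and 0.15 for MSF1 (adjusted p = 0.0953). Within slide 1 alone limma called none of the 5907 genes, with 987 at an unadjusted p under 0.05, 4 of them cytosolic synthetase genes. Centred on the spike-in probes, a scale on which the median of all genes was -0.71, TYS1 alone of the synthetase genes was called, as lower, against 2.13% of all genes called lower and 0.389% higher.

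With the slide as a block and glucose replicate 2 left out, a fit added after the data were seen, all 21 cytosolic genes were called lower, against 30.8% of all genes. Their differences ran from -2.16 for TYS1 to -0.32 for GLN4. Of the mitochondrial genes DIA4, MSF1, MST1 and SLM5 were called lower and MSR1 and NAM2 higher in that fit, with 33.7% of all genes called higher. The 4 lower mitochondrial genes differed by -0.64 for MSF1 to -0.37 for DIA4, and MSR1 and NAM2 by 0.21 and 0.22. With the close xylose replicates 1 and 2 averaged as 1 sample, 4 values per gene remained, and 20 cytosolic genes, DPS1 excepted, and the same 4 mitochondrial genes were called lower, none higher, against 28.3% of all genes called lower and 30.3% higher. The median SE over the cytosolic genes was 0.071 and 0.073 in these fits, against 0.34 with all arrays. Over all genes it was 0.078 and 0.077, against 0.33. Few arrays are left to measure that spread. It comes from how far the slides' differences disagreed and, in the first fit, from the gap between xylose replicates 1 and 2. Through eBayes each gene's spread is also drawn towards a value shared by all genes, so its SE is not that gene's own alone. These fits called 64.5% and 58.6% of all genes in either direction, so a call in them sets a gene apart from few others.

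For 13 amino acids a cytosolic enzyme has a separate mitochondrial counterpart, and in all 13 the cytosolic gene had the lower difference. The median gap between the differences of a pair was -0.85, and -1.07 without glucose replicate 2, where again all 13 were negative. Within a single slide the gap was positive only for threonine on slide 1, at 0.11, and for aspartate on slide 2, at 0.053. The pairs share the same arrays, so their number adds no independent evidence. The widest gap, with and without that array, was that of tyrosine, -2.02 ± 0.68 (SE over arrays) between TYS1 and MSY1, followed with all arrays by lysine with -1.36 ± 0.31 between KRS1 and MSK1. The leucine gap between CDC60 and NAM2 moved from -0.87 to -1.53 without glucose replicate 2, about level with lysine at -1.51. For tyrosine and lysine and for methionine, with -0.86 ± 0.16 between MES1 and MSM1, the cytosolic less the mitochondrial level was lower on each xylose array than on every glucose array. An exact two-sided permutation test over arrays gave p = 0.1 for each of the 3 pairs, the smallest value that 3 against 3 arrays allow, and 0.433 after adjustment over the 13 pairs, so no pair could pass. Aspartate had the narrowest gap with all arrays, -0.11 ± 0.13 between DPS1 and MSD1, with threonine at -0.12 ± 0.28 between THS1 and MST1. These gaps were -0.155 and -0.143 without that array, in the opposite order. Asparagine had a gap of -0.30 ± 0.92 and phenylalanine one of -0.17 ± 0.19, or -1.07 and -0.22 without that array. Arginine, whose enzymes YDR341C and MSR1 are related in sequence, had a gap of -0.85 ± 0.58, or -1.34 without glucose replicate 2.

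**Figure D5:**
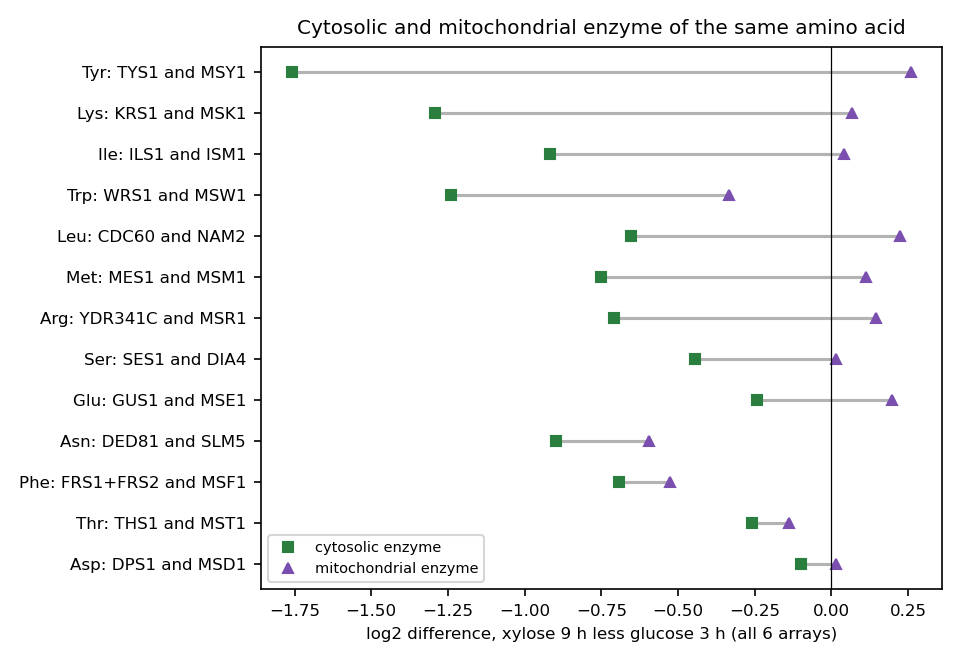
Log2 difference of xylose at 9 h less glucose at 3 h (all 6 arrays) for the cytosolic gene (squares) and the mitochondrial gene (triangles) of each amino acid; for phenylalanine the square is the mean of FRS1 and FRS2. The square lies left of the triangle in all 13 rows, with a gap of -2.02 in tyrosine and -0.11 in aspartate.

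Lists of other genes around tRNA charging had no member called with all arrays. None of 11 genes for partners of the synthetases passed with all arrays. An unadjusted p under 0.05 was held by 2 of them, close to the 16.5% of all genes. The median difference was -0.12, and 0.012 without glucose replicate 2. With all arrays 8 of the 11 differences were negative, and 5 without that array. GTF1, for a subunit of the mitochondrial amidotransferase that makes glutamine-charged tRNA from glutamate-charged tRNA, was at 1.005, 0.98 and 0.52 in xylose and at -0.42, -0.29 and -0.74 in glucose. Every xylose array lay above every glucose array. The difference of 1.32 ± 0.26 had a limma adjusted p = 0.050004, just over the threshold, and GTF1 rose by 1.42 without glucose replicate 2 (adjusted p = 0.0242), with 5.89% of all genes called higher. HER2 and PET112, for the other subunits, differed by 0.34 and -0.10, or 0.43 and -0.25 without that array. A few further genes are named after their values were seen. ARC1, the cytosolic cofactor that binds the methionine and glutamate enzymes, differed by -0.67 ± 0.44, and by -1.104 without glucose replicate 2 (adjusted p = 0.0826). GRS2, a copy of the glycine enzyme gene GRS1, differed by 0.11 ± 0.26 where GRS1 differed by -0.14 ± 0.43, and the values were 0.21 and -0.63 without glucose replicate 2. AIM10, a relative of prolyl-tRNA synthetases, differed by -0.12 ± 0.29, and by -0.073 without that array.

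Of 5 genes for sensing uncharged tRNA none passed with all arrays. Only 1, GCN1, had an unadjusted p under 0.05, against 16.5% of all genes. Named after its values were seen, GCN1 differed by -0.70 ± 0.29 (adjusted p = 0.296), with no overlap of the groups. Without glucose replicate 2 it differed by -0.85 (adjusted p = 0.117). In that fit 3 of the 5 had an unadjusted p under 0.05, against 27.7% of all genes. Only GCN20 was called there, as lower, against 5.65% of all genes called lower. GCN20, a partner of Gcn1 in activating Gcn2, stood at -1.34, -1.44 and -1.19 in xylose and at -0.24, -1.69 and -0.18 in glucose, so glucose replicate 2 was the lowest array and the others the highest. It differed by -0.62 ± 0.43, and fell by 1.11 on the log2 scale without that array (adjusted p = 0.0219). GCN4 itself, named after its values were seen, was at 3.30, 3.26 and 2.68 in xylose and at 2.44, 2.85 and 1.71 in glucose. The groups overlapped through glucose replicate 2 alone, and the difference was 0.74 ± 0.36 (adjusted p = 0.359). With that array left out the groups stood apart and the level was 2-fold higher in xylose (adjusted p = 0.113).

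Among 38 genes for tRNA processing, modification and export none passed in either fit, with 3 and 8 at an unadjusted p under 0.05, below the 16.5% and 27.7% of all genes, and the median was -0.03. The largest differences were those of RPM2, which belongs to mitochondrial RNase P, at 1.53 ± 0.36 (adjusted p = 0.0822) and of the tRNA methyltransferase gene TRM1 at 1.13 ± 0.27 (adjusted p = 0.0843). In both, the groups did not overlap. The differences were 1.43 (adjusted p = 0.0796) and 1.16 (adjusted p = 0.0520) without glucose replicate 2. TAD2, named after its values were seen, was nearly as large in the other direction, at -1.12 ± 0.40 (adjusted p = 0.223). Its groups did not overlap either, and it differed by -0.95 without that array (adjusted p = 0.238). Of the 38 differences 22 were negative with all arrays. Among 9 genes for mitochondrial tRNA modification and translation factors the median was 0.34. The elongation factor gene MEF1 differed by 0.78 ± 0.23 (adjusted p = 0.141) and TUF1, for the factor that carries charged tRNA to the mitochondrial ribosome, by 0.67 ± 0.43. The values were 0.66 and 0.23 without glucose replicate 2, the second a move of over 1.5 times. None of the 9 passed in either fit, with 1 of 9 at an unadjusted p under 0.05 in each, against 16.5% and 27.7% of all genes.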

How the data were processed

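The authors read each spot's intensity from the scans with Agilent Feature Extraction 10.1.1.1, named in the submitters' processing notes; subtraction of background and detrending had been applied to the processed intensity, per the file headers. The authors also deposited a table of log2 values; 100% of them equalled the recomputed probe log2 values less 1 constant per array within 0.001, that constant lying within 0.016 of the 75th percentile (log2). Its scale is thus log2 in the direction of the signal with no centring per gene, and its medians were -1.25 (xylose 1), -1.23 (xylose 2), -1.38 (xylose 3), -1.26 (glucose 1 and 2) and -1.415 (glucose 3). Groups came from the titles. Control spots and spots flagged non-uniform or outlying, 727 to 1722 of 43792 per array, were left out, no spot was saturated, and the 7 spots of a probe were averaged after centring. A probe was well above background on an array when over 0.5 of its spots were, and genes that met this on 3 or more of the 6 arrays entered a limma model (version 3.58.1, under R 4.3.3; lmFit, then eBayes, sugar as the only term, two-sided). The fit was checked on simulated arrays with independent noise of 1 common spread for all genes. They held no slide effect, close replicates or outlying array, so the check does not cover these features of the data. Locus tags of 5756 probes matched the RefSeq gene table (assembly R64), which gave the symbols. The files name no genome build, so no coordinates are printed, and no sequences were used here.

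The synthetase genes and the lists of other genes were chosen with earlier results of these data known. Values on every array are given for genes called with or without glucose replicate 2, the 4 largest differences and the smallest in each compartment; of other lists, called genes or else the 2 largest differences are named. Other synthetase genes are named with values seen. Deviations of same-numbered xylose and glucose samples from their group means correlated across genes at 0.40, 0.22 and 0.71 for replicates 1 to 3. Xylose replicate 2 correlated more with glucose replicate 1, at 0.41, and replicate 3 of both sugars shared slide 2. The labels do not say that the numbers pair samples, so the main fit did not pair them. Pairing by number was used only in the replicate block and in the comparison by replicate number. Alternatives were other centrings, background correction, filters, blocks and left-out arrays.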

Additional observations from a re-analysis of the deposited data

How the results depend on the processing

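Against 0 calls with all arrays, cytosolic synthetase calls, all of them lower in xylose, numbered 1 under the replicate block (WRS1, the only synthetase call it changed), 4 under the slide block, 2 with median centring, 3 with quantile normalization, and 1 each with spike-in centring, with genes well above background on all arrays, and with xylose replicates 1 and 2 averaged and glucose replicate 2 left out. They numbered 21 with the slide block and glucose replicate 2 left out, and 20 with the xylose pair averaged as well; mitochondrial calls were then 6 and 4 and otherwise 0. Leaving out 1 array at a time gave 0 to 7 cytosolic calls, the 7 without glucose replicate 2. All-gene calls, 149 as reported, were 158 with median centring, 191 with quantile normalization, 150 with genes well above background on all arrays, 310 under the replicate block, 690 under the slide block, 0 within slide 1 (987 at an unadjusted p under 0.05), 53 with normexp (37 higher, 16 lower, where the reported split was 84 and 65), 12 with the xylose pair averaged, 97 with glucose replicate 2 left out as well, 3812 and 3462 in the fits that add the slide block to these, and 12 to 682 without 1 array. Spike-in centring moved the median of all genes to -0.71 (23 higher, 126 lower), that of the cytosolic genes to -1.25 and of the mitochondrial genes to -0.69, and normexp, run on median spot signals since the files used hold no mean signals, moved the median of all genes to 0.22. The gap between the compartments' medians, -0.56, ran from -0.84 to -0.48 over all alternatives.

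None of the 7 genes called without glucose replicate 2 turned sign, but genes with small differences did. With spike-in centring GLN4 was at -0.51, DIA4 at -0.71, ISM1 at -0.69, MSD1 at -0.71, MSE1 at -0.53, MSK1 at -0.66, MSM1 at -0.62, MSR1 at -0.58, MSY1 at -0.47 and NAM2 at -0.51; this scale moved all genes down. Median centring gave -0.013 for DIA4 and -0.015 for MSD1, and normexp 0.012 for DPS1 and 0.052 for MST1. Within slide 1 GRS1 was at 0.15 and THS1 at 0.076. Averaging the xylose pair gave -0.033 for MSR1. With glucose replicate 2 left out too, GLN4 was at -0.31, DIA4 at -0.39, MSD1 at -0.19, MSE1 at -0.092 and MSM1 at -0.11, and with the slide block and that array left out at -0.32, -0.37, -0.19, -0.093 and -0.11. All of these changes together gave -0.31, -0.39, -0.19, -0.092 and -0.11. Without 1 array at a time the difference ran from -0.50 to 0.49 for DIA4, -0.36 to 0.11 for DPS1, -0.26 to 0.56 for GLN4, -0.63 to 0.22 for GRS1, -0.24 to 0.35 for ISM1, -0.20 to 0.15 for MSD1, -0.12 to 0.26 for MSK1, -0.24 to 0.49 for MSM1, -0.21 to 0.50 for MSR1, -0.45 to 0.13 for MST1, -0.81 to 0.21 for MSW1, -0.12 to 0.77 for MSY1 and -1.12 to 0.12 for SES1. The cause was not tested.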
